A study of Mus musculus with 24 samples.

Results

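A set of 9 genes of the interleukin-1 system was followed across tumour-associated and marrow-derived mouse macrophages: the ligands Il1a, Il1b and Il18, the receptor antagonist Il1rn, the receptors Il1r1 and Il1r2, the binding protein Il18bp, and the inflammasome genes Nlrp3 and Casp1. They were taken by name from the non-control spots of the arrays, as 9 of 24016 named genes. Each had 1 probe except Nlrp3, which had a second. The study asked how tumour-associated macrophages (TAM) of mice that had survived sepsis differ from those of naive mice. All mice were C57BL/6 males aged 10 weeks.

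TAM post-sepsis were isolated 14 days after sepsis induction and TAM naive from mice without sepsis, both by a Percoll gradient and 1 hour of adhesion. M0 post-sepsis and M0 naive macrophages were grown from marrow of such mice for 7 days in medium with 20% L929 supernatant and 10% serum. M1 cultures, from naive marrow, received interferon-gamma at 50 ng/mL with lipopolysaccharide at 10 ng/mL at day 3. M2 cultures, also from naive marrow, received IL-10 at 20 ng/mL at day 3. Each group had 4 arrays, and TAM naive had 3 after the submitters' exclusion of replicate 2. The labels named neither the tumour line nor the animal behind each array. Samples had been selected for RNA purity, so p-values measure the spread between selected samples.

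IL-1 alpha and IL-1 beta act through the receptor Il1r1 and its partner Il1rap, whereas Il1r2 binds the same ligands without signalling and Il1rn occupies Il1r1 without activating it. IL-18 acts through Il18r1 and Il18rap and is held in solution by Il18bp. IL-1 beta and IL-18 are made as precursors that caspase-1 cuts once a sensor such as NLRP3 has assembled an inflammasome. In macrophages Il1b transcription is the classic priming step after contact with microbial products, while the mRNA says nothing of cleavage or release.

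Promoter windows are given here for 4 of the 7 genes that were higher in M1 cultures than in M0 naive. The windows run 5′ to 3′ from 250 bases before to 50 after the transcript start in RefSeq's GRCm38.p6 table, which matched all 9 genes in 13 windows. Capitals mark matches on either strand to any of 6 motifs.
Il1a: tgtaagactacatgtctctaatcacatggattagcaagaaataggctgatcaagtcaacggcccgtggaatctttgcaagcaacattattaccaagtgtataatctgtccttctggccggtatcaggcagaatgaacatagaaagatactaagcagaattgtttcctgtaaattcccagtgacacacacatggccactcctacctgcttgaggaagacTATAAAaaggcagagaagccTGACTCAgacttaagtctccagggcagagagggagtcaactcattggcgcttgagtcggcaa
Il1b: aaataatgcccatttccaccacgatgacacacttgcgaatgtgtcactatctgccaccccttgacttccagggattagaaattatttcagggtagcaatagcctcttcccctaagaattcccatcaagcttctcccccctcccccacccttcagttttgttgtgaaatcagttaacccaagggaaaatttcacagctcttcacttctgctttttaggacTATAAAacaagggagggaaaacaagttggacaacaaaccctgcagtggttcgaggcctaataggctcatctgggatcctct
Il18bp: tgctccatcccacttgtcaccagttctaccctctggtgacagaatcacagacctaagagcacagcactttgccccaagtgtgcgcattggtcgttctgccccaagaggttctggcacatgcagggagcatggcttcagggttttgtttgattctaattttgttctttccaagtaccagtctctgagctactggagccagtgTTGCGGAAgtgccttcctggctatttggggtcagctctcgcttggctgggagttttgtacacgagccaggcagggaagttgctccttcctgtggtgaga
Casp1: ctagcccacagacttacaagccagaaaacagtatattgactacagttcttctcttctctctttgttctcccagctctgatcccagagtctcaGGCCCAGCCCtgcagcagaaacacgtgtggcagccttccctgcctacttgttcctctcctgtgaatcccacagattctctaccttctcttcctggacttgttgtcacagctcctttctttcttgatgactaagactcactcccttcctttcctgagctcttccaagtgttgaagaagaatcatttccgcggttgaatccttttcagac
These windows lay at chr2:129309923-129310222 (minus strand) for Il1a, chr2:129371090-129371389 (minus) for Il1b, chr7:102018183-102018482 (minus) for Il18bp and chr9:5298267-5298566 (plus) for Casp1.

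The motifs searched, with N for any base, were AP-1 as TGANTCA, the TATA box as TATAAA, GAS as TTCNNNGAA, C/EBP as TTGCNNAA, ISRE as GAAA, 2 bases of any kind and GAAA, and NF-kB as GGG, 5 bases of any kind and CC. Il1a held a TATA match at -32 to -27, with the start counted as 0, and an AP-1 match at -12 to -6. Il1b held a TATA match at -31 to -26. TATA letters stood in 13.6% of all 32851 windows and AP-1 letters in 7.81%. Il18bp held a C/EBP match at -49 to -42, a motif found in 10.8% of windows. Casp1 held an NF-kB match at -158 to -149, on the opposite strand, and such letters stood in 50.8% of windows. The GAS and ISRE letters, found in 8.3% and 3.44% of windows, were in none of the 4. Of the other genes higher in M1, Il1r2 held a GAS match at -111 to -103, and the first of 3 Il1rn windows held an AP-1 match at -141 to -135 and NF-kB matches at -54 to -45 and -4 to 5. The other Il1rn windows held NF-kB and TATA matches, and the 2 Il1r1 windows held a C/EBP and an NF-kB match. No motif overlapped another in these windows.

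Levels below are log2 processed intensities relative to the 75th percentile of the same array, so that 0 is the 75th percentile. Between 56.9% and 69.7% of probes per array were flagged well above background over the 23 arrays. Pairs of arrays within a group correlated at 0.899 to 0.991. Nos2, the inducible nitric oxide synthase, lay between 8.55 and 8.91 in M1 and between 0.11 and 0.53 in M0 naive cultures. The 8 macrophage markers averaged 0.35 to 1.55 in TAM post-sepsis, 1.12 to 1.55 in TAM naive and 6.13 to 6.24 in M0 naive. The 5 melanocyte markers averaged 7.46 to 7.67 in TAM post-sepsis, 6.96 to 7.67 in TAM naive and -4.70 to -4.09 in M0 naive. The 4 fibroblast markers were likewise high in TAM, at 3.52 to 6.04 post-sepsis and 3.57 to 5.70 naive, against -4.30 to -3.33 in M0 naive. The defining markers of macrophages were thus lower, and those of melanocytes and fibroblasts higher, in TAM than in cultures. Fewer cells of a type cannot be told apart from less RNA per cell. Within TAM post-sepsis, replicate 2 had the lowest macrophage marker mean, 0.35, and replicate 3 the lowest neutrophil marker mean, -2.68.

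**Figure D1:**
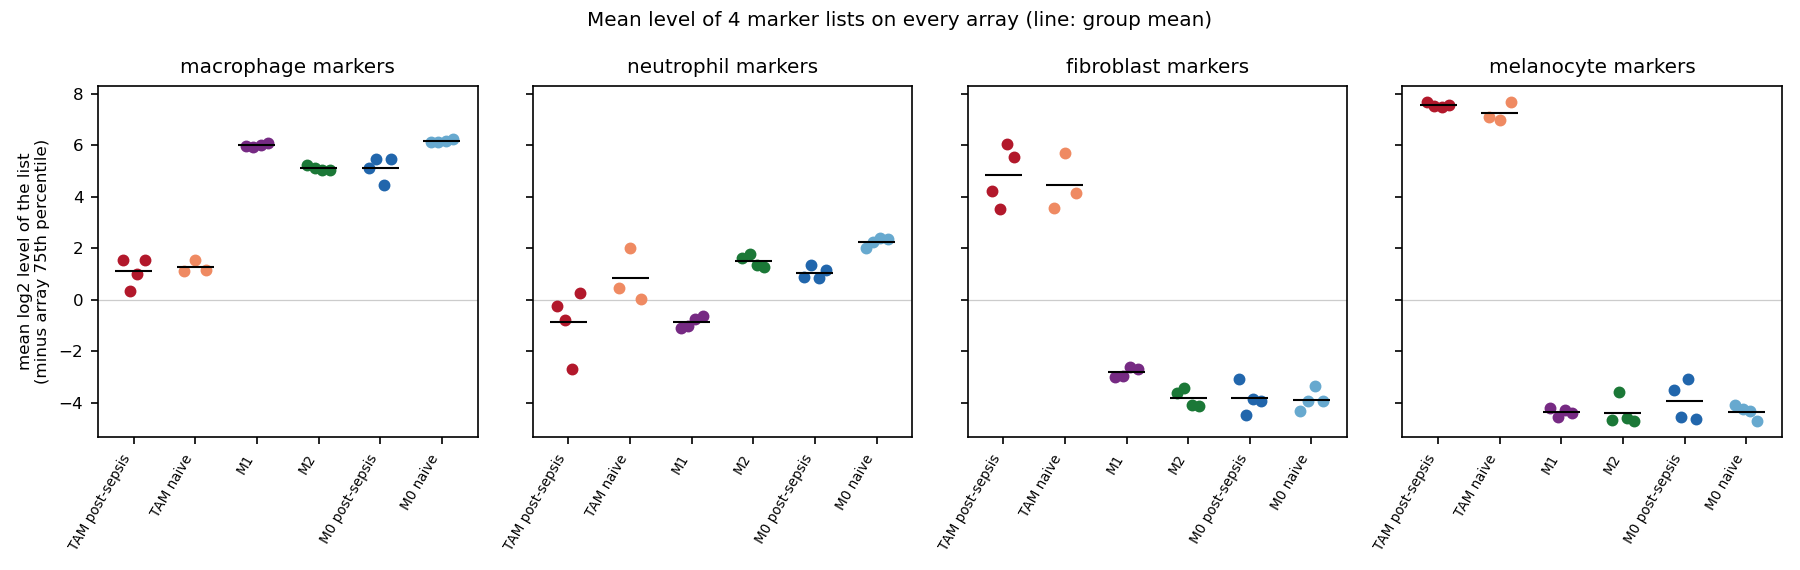
Mean log2 level, relative to the 75th percentile of the array, of the macrophage, neutrophil, fibroblast and melanocyte marker lists on each of 23 arrays (points) with the group mean (line). Melanocyte markers averaged at least 6.96 on every TAM array and lay below 0 in all cultures, while macrophage markers averaged at most 1.55 on TAM arrays.

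Il1b, the inducible ligand cut by caspase-1, had its highest level in M1 cultures and its lowest in M2. Its probe at chromosome 2, 129190347 to 129190406 (mm9, minus strand) stood in 10 spots per array, whose coefficient of variation was 2.63% to 8.23% in M1 and 9.94% to 43.7% in the dim M2 arrays. The M1 arrays read 8.16, 8.04, 8.04 and 8.23, against -0.37 to -0.10 in M0 naive. The groups lay far apart, with a difference of 8.31 ± 0.20 (SE; limma adjusted p = 5.1e-13), or 317-fold. M1 exceeded M2 by 11.74 ± 0.20 (limma adjusted p = 9.08e-15).

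With IL-10, Il1b was at -3.76, -3.78, -3.34 and -3.62 in M2 cultures, below every M0 naive array. The difference from M0 naive was -3.43 ± 0.20 (limma adjusted p = 1.52e-08). M0 post-sepsis cultures, which share the M0 naive arrays as their controls, read -3.68, -2.74, -3.53 and -3.02, with 3 of 4 arrays well above background. Their difference from M0 naive was -3.05 ± 0.20 (limma adjusted p = 1.24e-07), a level 0.120 times that of M0 naive. It was -3.36 within slide 2 and -2.78 within slide 3, the slides that held both groups.

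In TAM, Il1b lay between the M1 and M0 levels. TAM post-sepsis read 4.07, 2.24, 1.49 and 4.73 and TAM naive 4.29, 6.13 and 4.00, so that the groups overlapped. TAM naive exceeded M0 naive by 5.0 ± 0.56 (limma adjusted p = 3.39e-07). TAM post-sepsis differed from TAM naive by -1.68 ± 0.87 (limma adjusted p = 0.187). The 2 highest post-sepsis arrays shared slide 1 with the highest naive array, and with slide as a block the difference was -2.06 ± 0.26 (limma adjusted p = 0.011). Within slides 1, 2 and 3 it was -1.73, -2.52 and -2.06. From high to low, the Il1b order was M1, TAM naive, TAM post-sepsis, M0 naive, M0 post-sepsis and M2. The ranges of both TAM groups overlapped, as did those of M0 post-sepsis and M2, and the other neighbours were apart.

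Il1a, which is active without cleavage by caspase-1, was well above background on all M1 arrays, at 4.00, 4.88, 4.41 and 4.83. It was well above background on no M0 naive array, on 2 of 4 M2 arrays and on 1 of 4 M0 post-sepsis arrays. M1 cultures were at least 528-fold higher than M0 naive, where the fit gave an adjusted p of 7.61e-10. Such a bound sets the bright group's mean against the dimmest signal that counts as well above background on the dim group's arrays. TAM naive read -3.26, -2.02 and -3.02, at least 3.35-fold above M0 naive (limma adjusted p = 0.000531). TAM post-sepsis read -2.25, -6.02, -3.60 and -1.78, where replicate 2 was not well above background. The TAM difference was -0.64 ± 0.96 (limma adjusted p = 0.625), and without that replicate it was 0.23.

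Il18, the ligand of the IL-18 receptor, was lower in M2 and in TAM than in M0 naive. It read 0.21, -0.29, 0.08 and -0.14 in M2 and 1.96, 1.62, 1.26 and 1.72 in M0 naive, with no overlap. M2 differed from M0 naive by -1.68 ± 0.24 (limma adjusted p = 0.000189). M1 read 0.94 to 1.32 and differed from M0 naive by -0.52 ± 0.24 (limma adjusted p = 0.126), and from M2 by 1.15 ± 0.24 (limma adjusted p = 0.00135). M0 post-sepsis read 0.88, 1.34, 0.16 and 1.16, a difference of -0.76 ± 0.24 that missed the threshold (limma adjusted p = 0.0515) and passed it with slide as a block (limma adjusted p = 0.0224). Both TAM groups were lower than any culture array, at -0.88 to -0.32 post-sepsis and -1.12 to -0.60 naive. TAM naive differed from M0 naive by -2.55 ± 0.25 (limma adjusted p = 3.94e-08).

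Of 6 other ligands of the family on the array, Il1f6 and Il1f9, which encode IL-36 alpha and IL-36 gamma, passed the filter in M1 and both were higher there. Il1f6 read 0.74 to 1.22 in M1 and was at least 43.3-fold higher than in M0 naive, where no array was above background. Il1f9 was at least 6.12-fold higher in M1 and at least 2.88-fold higher in TAM naive. Il33, an alarmin of stromal cells, was above background on TAM arrays alone, at -1.36 to 3.60 post-sepsis and 0.49 to 3.58 naive. TAM naive exceeded M0 naive in Il33 by at least 70.5-fold (limma adjusted p = 3.7e-08), beside the fibroblast markers given above. Their part in it was not tested.

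**Figure D2:**
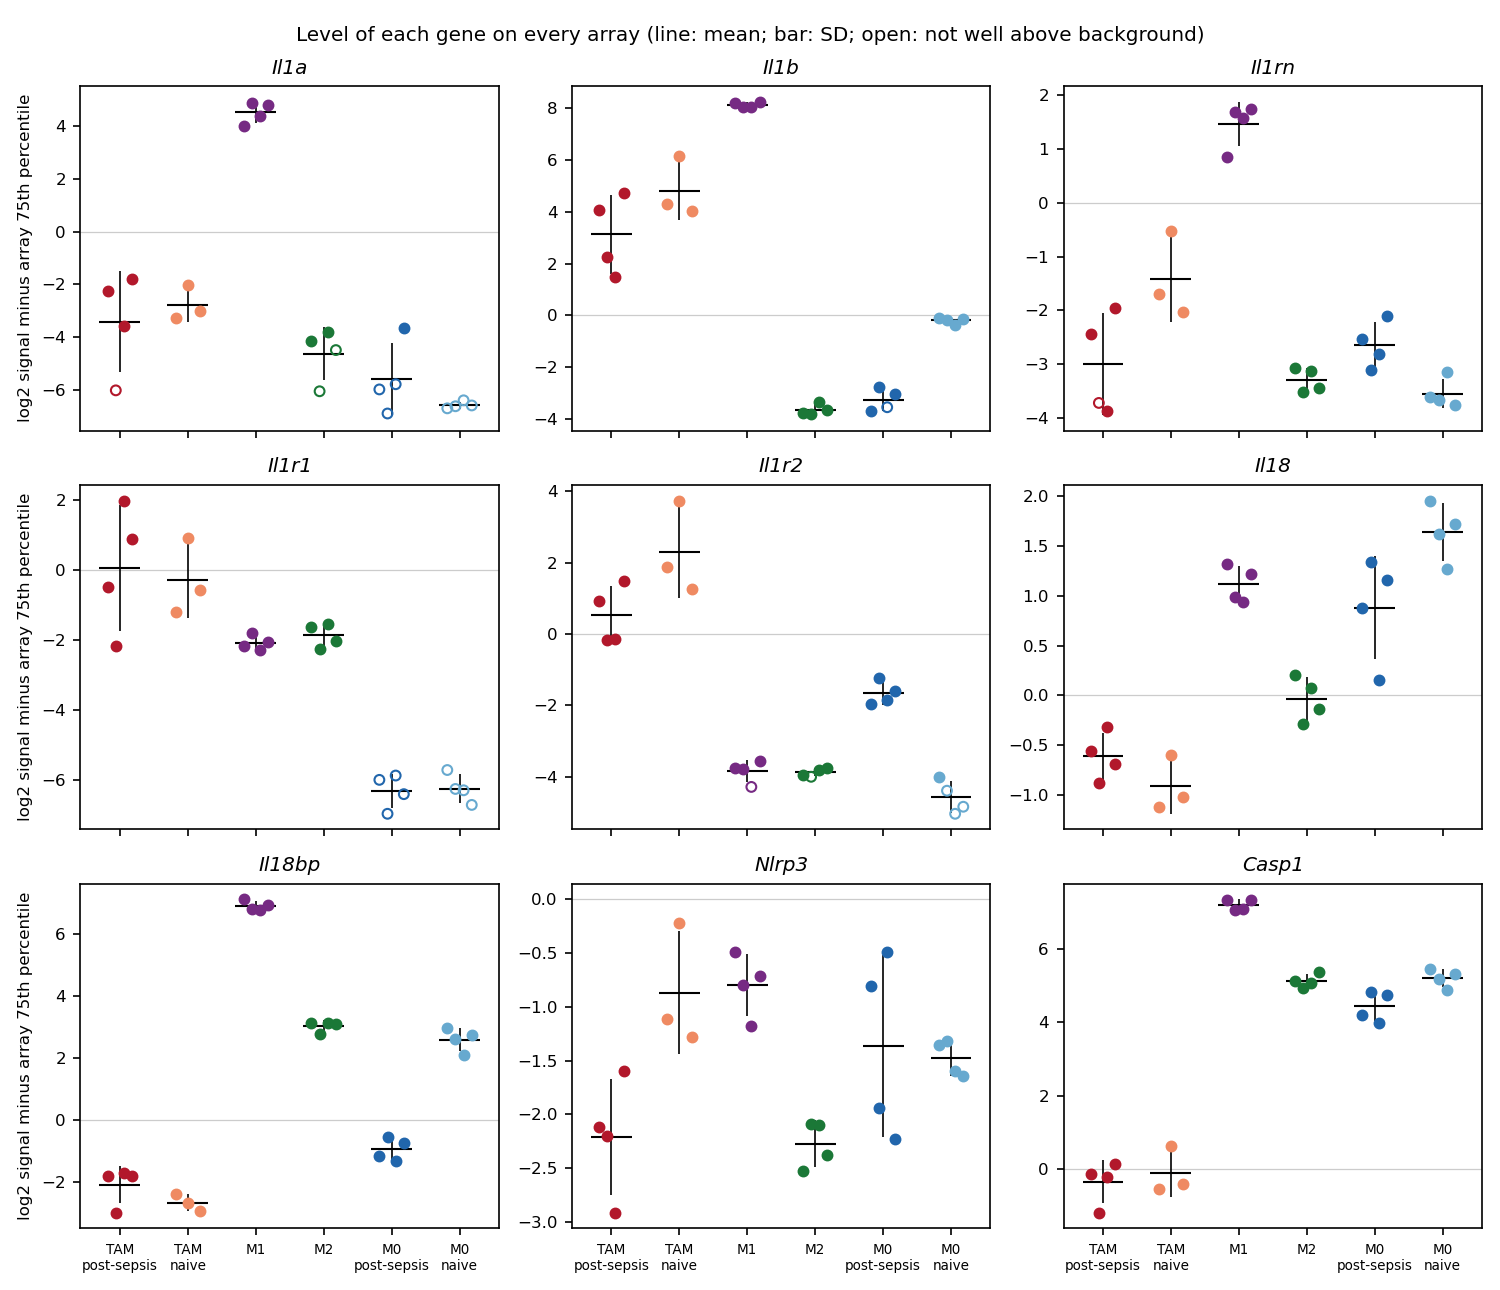
Log2 level relative to the 75th percentile of the array for the 9 genes on each of 23 arrays (points, open where not well above background), with the group mean (line) and SD (bar). The 4 M1 arrays lay above all others for Il1a, Il1b, Il1rn, Il18bp and Casp1, and the TAM arrays lay below all others for Casp1, Il18 and Il18bp.

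Il1rn, the receptor antagonist, was also highest in M1 cultures. It read 0.85, 1.68, 1.59 and 1.75 in M1, against -3.77 to -3.15 in M0 naive, a difference of 5.02 ± 0.25 (limma adjusted p = 5.9e-10), or 32.3-fold. In M2 it read -3.52 to -3.07 and differed from M0 naive by 0.26 ± 0.25 (limma adjusted p = 0.589). M0 post-sepsis read -2.54, -3.12, -2.80 and -2.10, all above the highest M0 naive array at -3.15. That difference was 0.91 ± 0.25 (limma adjusted p = 0.0249), and it missed the threshold under 9 other settings, with adjusted p up to 0.151.

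The post-sepsis difference in Il1rn was not the same in TAM as in M0. TAM post-sepsis read -2.44, -3.72, -3.87 and -1.95, against -1.69, -0.52 and -2.03 in TAM naive, with an overlap of 1 array each. The difference was -1.58 ± 0.57 (limma adjusted p = 0.116) and -1.83 ± 0.22 with slide as a block (limma adjusted p = 0.011). The post-sepsis difference in TAM minus that in M0 was -2.49 ± 0.57 (limma adjusted p = 0.0125). Under quantile scaling it was -2.0, with an adjusted p of 0.0511.

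Il1r1, the signalling receptor, was well above background on no M0 array of either kind and on all arrays of the other groups. M1 read -2.19, -1.81, -2.30 and -2.07, and M2 -1.65, -2.26, -1.55 and -2.02. Against M0 naive, M1 was at least 5.36-fold and M2 at least 6.24-fold higher (limma adjusted p = 9.15e-09 and 2.39e-08). M1 minus M2 was -0.22 ± 0.27 (limma adjusted p = 0.594), and their ranges overlapped. Both comparisons share the M0 naive arrays. TAM post-sepsis spread widely, at -0.49, -2.19, 1.99 and 0.89, and TAM naive read -1.21, 0.90 and -0.58. TAM naive was at least 18.6-fold above M0 naive (limma adjusted p = 2.01e-07), and fibroblasts also express Il1r1, whose part was not tested. The TAM difference was 0.35 ± 0.97 (limma adjusted p = 0.8) and was -0.30 without TAM post-sepsis replicate 3 and -0.11 without TAM naive replicate 1.

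Il1r2, the decoy receptor, was higher in M0 post-sepsis than in M0 naive. M0 post-sepsis read -1.97, -1.22, -1.85 and -1.59, whereas M0 naive read -4.02, -4.39, -5.04 and -4.84 with 1 of 4 arrays well above background. The ranges were apart and the difference was 2.92 ± 0.24 (limma adjusted p = 1.09e-06), or 7.56-fold, a size that is uncertain because the naive level is near background. Within slides 2 and 3 the difference was 3.03 and 2.62. Against M0 naive, M1 differed by 0.72 ± 0.24 (limma adjusted p = 0.0301) and M2 by 0.69 ± 0.24 (limma adjusted p = 0.0714), all near background. M1 minus M2 was 0.03 ± 0.24 (limma adjusted p = 0.941).

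In TAM post-sepsis Il1r2 read 0.94, -0.16, -0.14 and 1.5, against 1.87, 3.74 and 1.27 in TAM naive. Replicate 4 of the post-sepsis arrays exceeded the lowest naive array. The difference was -1.76 ± 0.66 (limma adjusted p = 0.117), and -2.04 ± 0.28 with slide as a block (limma adjusted p = 0.011). The difference of differences was -4.68 ± 0.62 (limma adjusted p = 0.000131). It was -3.48 with an adjusted p of 0.068 when the excluded TAM naive array was included. TAM naive exceeded M0 naive by 6.87 ± 0.46 (limma adjusted p = 1.5e-10).

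Il1r2 is also expressed by neutrophils. The neutrophil list averaged -2.68 to 0.27 in TAM post-sepsis and 0.03 to 2.00 in TAM naive. With slide as a block, 6 of 8 tested neutrophil markers were lower post-sepsis, among them S100a8 at -2.95, where 24.1% of all probes were lower. Without the block 0 of 8 were called, where 0% of all probes were. In M0 post-sepsis, 5 of 9 neutrophil markers were lower than in M0 naive, where 6.28% of all probes were lower. The summed neutrophil level ran from 165 to 580 in TAM post-sepsis and 505 to 1020 in TAM naive, on the linear scale where 1 is the 75th percentile. All 9 neutrophil markers were above background on some array of both groups. Their part in the TAM and M0 differences of Il1r2 was not tested.

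In the other receptors of the family, Il1rl1, the receptor for IL-33, was higher in M0 post-sepsis than in M0 naive by 2.07 ± 0.25 (limma adjusted p = 4.64e-05). It was the 1 call among 3 of 8 listed receptors that could be tested there, where 12.7% of all probes were called. In M2 it exceeded M0 naive by 1.10 ± 0.25 (limma adjusted p = 0.00821). Sigirr, an inhibitory member, was lower in M1 by 1.39 on the log2 scale, its difference being -1.39 ± 0.21 (limma adjusted p = 7.7e-05). It was also lower in M2 than in M0 naive, at -0.90 ± 0.21 (limma adjusted p = 0.00943). Its M1 minus M2 difference was -0.50 ± 0.21 (limma adjusted p = 0.0851). With slide as a block, the shared receptor chain Il1rap and the IL-18 receptor Il18r1 were lower in TAM post-sepsis than in TAM naive, at -1.48 ± 0.31 and -3.17 ± 0.56 (limma adjusted p = 0.0154 and 0.0111). Beside Il18r1, which T and NK cells express, 5 of 5 tested markers of those cells were lower in the same fit, where 24.1% of all probes were. Il18r1 was well above background on 1 of 4 TAM post-sepsis arrays, so the size of its difference is uncertain. The difference of differences passed the threshold for Il1rl1, at -3.05 ± 0.81 (limma adjusted p = 0.0292). No size is given for Il18r1 there, because it was well above background on 1 of 4 M0 post-sepsis and 0 of 4 M0 naive arrays.

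Il18bp, the soluble inhibitor of IL-18, was highest in M1 and lower in M0 post-sepsis than in M0 naive. It read 7.10, 6.78, 6.75 and 6.92 in M1, against 2.96, 2.59, 2.07 and 2.72 in M0 naive, a difference of 4.30 ± 0.22 (limma adjusted p = 5.99e-10), or 19.7-fold. M2 read 2.77 to 3.13 and differed from M0 naive by 0.44 ± 0.22 (limma adjusted p = 0.22). M0 post-sepsis read -1.16, -0.57, -1.34 and -0.75, far below M0 naive. The difference was -3.54 ± 0.22 (limma adjusted p = 5.41e-08), a level 0.0860 times that of M0 naive, and it was -3.64 and -3.62 within slides 2 and 3. Of 8 macrophage markers, 5 were lower in M0 post-sepsis as well, with a list median of -1.04, where 6.28% of all probes were lower. Their part in the Il18bp and Casp1 differences was not tested.

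In TAM, Il18bp read -1.81, -2.99, -1.73 and -1.82 post-sepsis and -2.41, -2.67 and -2.94 naive. The other 3 post-sepsis arrays lay above all naive ones and replicate 2 below them, for a difference of 0.59 ± 0.35 (limma adjusted p = 0.241). Without replicate 2, the array that lay apart in this gene, it was 0.89 (limma adjusted p = 0.0247). In that fit 11194 of 34650 probes were called, against 0 with replicate 2 kept. This omission is given because of these same Il18bp values, so its call is no separate support. The difference of differences was 4.12 ± 0.38 (limma adjusted p = 2.49e-06). TAM naive lay 5.26 log2 units under M0 naive, the difference being -5.26 ± 0.28 (limma adjusted p = 6.07e-12).

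Casp1, the protease that cuts IL-1 beta and IL-18, was high in every culture and far lower in TAM. M1 read 7.33, 7.07, 7.08 and 7.34, above the 4.89 to 5.46 of M0 naive by 1.99 ± 0.21 (limma adjusted p = 1.65e-06). M2 read 4.94 to 5.39 and overlapped M0 naive, at -0.09 ± 0.21 (limma adjusted p = 0.85). M0 post-sepsis read 4.20, 4.82, 3.98 and 4.75, all below M0 naive. That difference was -0.78 ± 0.21 (limma adjusted p = 0.0205), with adjusted p up to 0.0845 under other settings.

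Casp1 in TAM read -0.13, -1.19, -0.21 and 0.15 post-sepsis and -0.53, 0.64 and -0.42 naive, with overlapping ranges (difference -0.24 ± 0.41, limma adjusted p = 0.671). TAM naive differed from M0 naive by -5.32 ± 0.31 on the log2 scale (limma adjusted p = 1.79e-11). In the same comparison 7 of 8 macrophage markers were lower in TAM naive, with a list median of -6.03, where 22% of all probes were lower. Melanocyte markers were higher in 5 of 5, with a median of 11.98, where 16.1% of all probes were higher. The part of both lists, and of the fibroblast markers, in the Casp1, Il18, Il18bp, Il1a, Il1b, Il1rn and Il1r2 levels of TAM was not tested.

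Nlrp3, the sensor, had overlapping ranges between all neighbours in its order of group means. Its brighter probe read -0.49, -0.80, -1.18 and -0.71 in M1 and -1.65 to -1.32 in M0 naive, a difference of 0.68 ± 0.32 (limma adjusted p = 0.135), which passed with slide as a block at 0.84 (limma adjusted p = 0.0349). The second probe gave 1.32 ± 0.34 for the same comparison (limma adjusted p = 0.00614). The probes also disagreed for M2, at -0.79 ± 0.32 and -1.54 ± 0.34 (limma adjusted p = 0.127 and 0.00587). M1 exceeded M2 with both probes, by 1.48 ± 0.32 and 2.86 ± 0.34. In M0 post-sepsis the arrays split into -0.80 and -0.49 on slide 2, and -1.94 and -2.23 on slide 3.

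In TAM post-sepsis, the brighter Nlrp3 probe read -2.11, -2.20, -2.91 and -1.60, and every array lay below the -1.11, -0.22 and -1.28 of TAM naive. The difference was -1.34 ± 0.38 (limma adjusted p = 0.116), and -1.48 ± 0.23 with slide as a block (limma adjusted p = 0.011). Within slides 1, 2 and 3 it was -1.64, -1.64 and -1.09. With the second probe the ranges overlapped, at -2.23 in TAM post-sepsis replicate 4 and -2.44 in TAM naive replicate 4. Its difference was -1.23 ± 0.46 (limma adjusted p = 0.117), and -1.38 ± 0.26 with slide as a block (limma adjusted p = 0.0118). For the brighter probe the difference of differences was -1.45 (limma adjusted p = 0.0833), and it passed with slide as a block (limma adjusted p = 0.0461).

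Counted over the genes, limma called 0 of 9 between the TAM groups, where 0% of 34823 probes were called and 12834 had an unadjusted p under 0.05. With slide as a block it called 4 of 9 lower, Il1b, Il1rn, Il1r2 and Nlrp3, where 33.1% of probes were called, 9.01% higher and 24.1% lower. The median over the 9 was -0.64 without and -0.999 with the block, beside 0.02 and 0.01 over all probes. In the same fit, markers of several immune cell types were lower in TAM post-sepsis: 4 of 4 for B cells (Ms4a1 at -3.79), 4 of 4 for mast cells (Cpa3 at -2.41), 4 of 5 tested for dendritic cells (Ccr7 at -2.73), and the T and NK cell and neutrophil markers given above. Of the 8 macrophage markers, Cd14 and Itgam were lower, at -1.75 and -1.92. The others were not called and ran from -0.004 (Cd68) to 0.54 (Lyz2). B cell markers averaged -3.95 to -1.37 in TAM post-sepsis and -0.60 to 1.40 in TAM naive, mast cell markers -1.93 to -1.04 and -0.03 to 0.90, and dendritic cell markers -2.54 to -2.12 and -1.16 to -0.39. Their part in the 4 calls was not tested. The same 4 were called lower without TAM post-sepsis replicate 2 in that design, and Il18bp was then called higher, at 1.01 ± 0.23 (limma adjusted p = 0.028). That setting was chosen after seeing the data. In M0 post-sepsis, 2 of 7 tested genes were higher and 3 lower, where 12.7% of probes were called, 6.37% higher and 6.28% lower. Il1a and Il1r1 were too dim to be tested there. The median difference over the 7 was -0.76, and over all probes 0.05.

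Of 9 genes, 7 were higher in M1 than in M0 naive, where 14.6% of probes were, and none was lower, where 15.6% were. In all, 30.1% of probes were called there. The 7 include Il1r2, at 0.72 with levels near background in both groups. The median over the 9 was 4.16, beside -0.10 over all probes. In M2, 1 of 8 tested genes was higher and 2 were lower, where 5.65% and 7.52% of probes were, 13.2% in all. M1 exceeded M2 in 7 of 9, where 16.6% of probes were higher and 16.4% lower, 32.9% in all. TAM naive differed from M0 naive in 5 genes higher and 3 lower, where 16.1% and 22% of probes were, 38.1% in all, with a median of 2.13 beside 0.01 over all probes. The difference of differences called 1 gene higher and 2 lower of 9, where 3.94% and 2.45% of probes were, 6.38% in all.

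**Figure D3:**
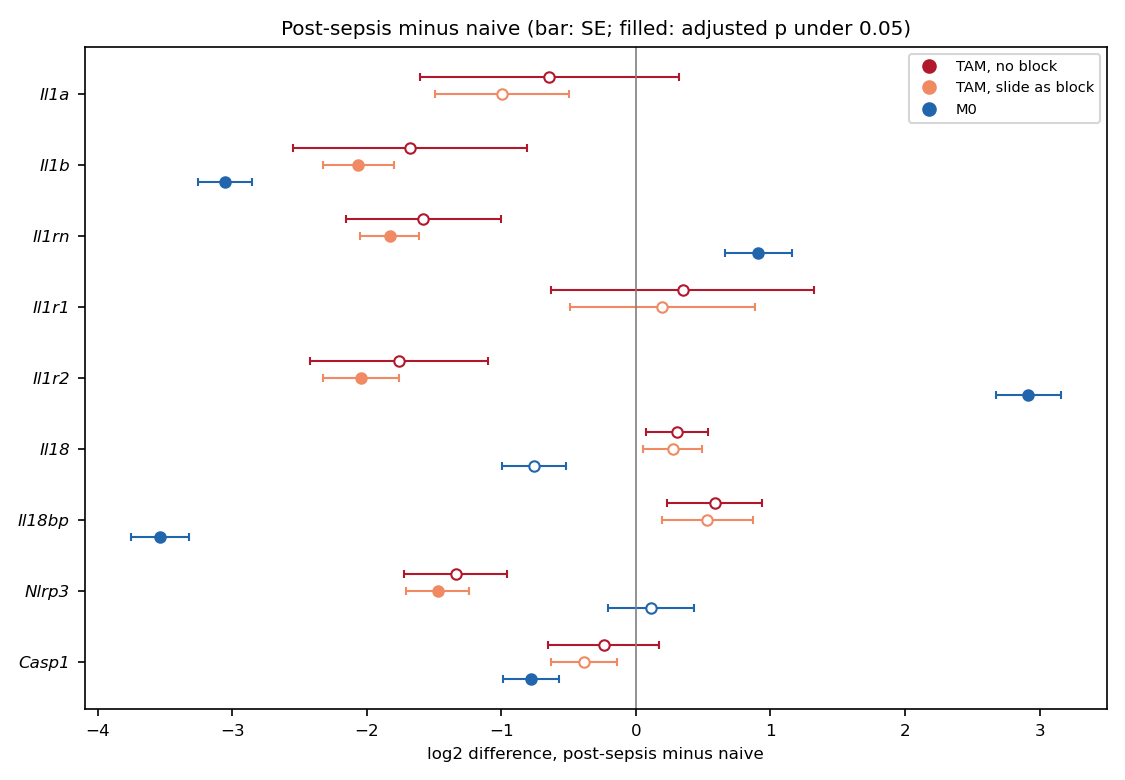
Log2 difference of post-sepsis minus naive for the 9 genes (points, bars ± SE), in TAM without and with slide as a block and in M0, filled where the limma adjusted p was under 0.05. Il1r2 lay at -1.76 in TAM and 2.92 in M0, and Il18bp at 0.59 in TAM and -3.54 in M0.

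**Figure D4:**
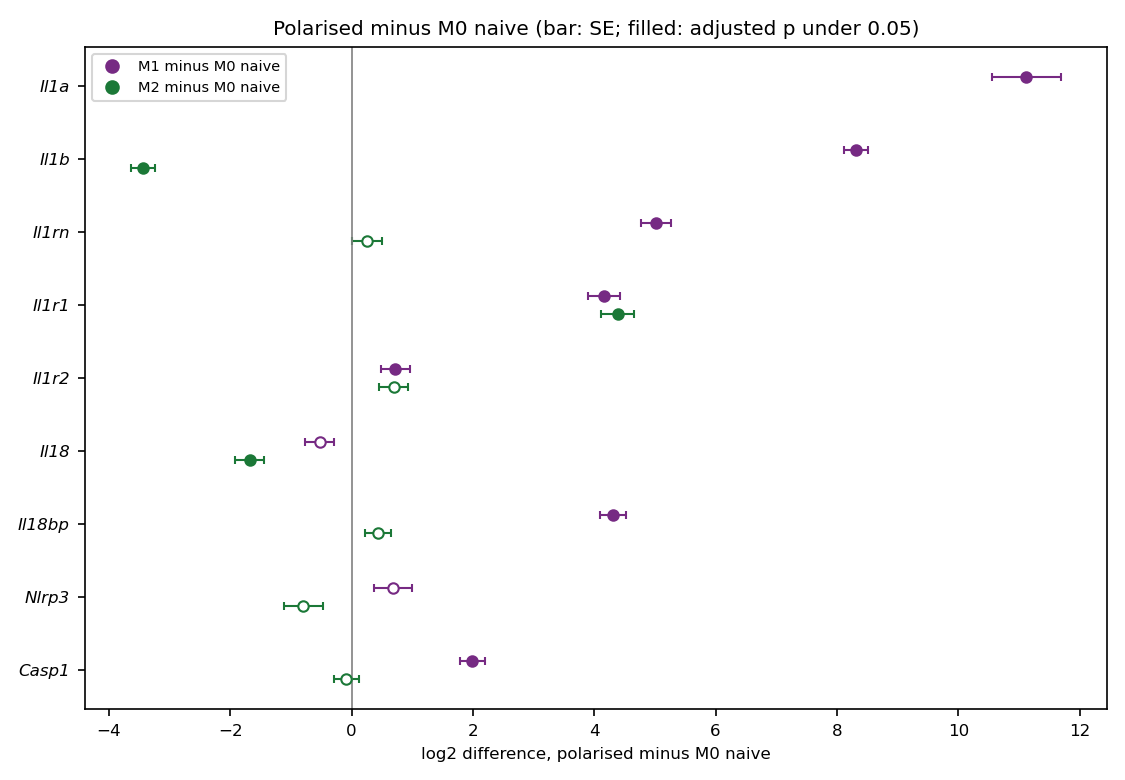
Log2 difference from M0 naive for M1 and M2 cultures (points, bars ± SE), filled where the limma adjusted p was under 0.05. Il1r1 lay at 4.16 in M1 and 4.38 in M2, whereas Il1b lay at 8.31 in M1 and -3.43 in M2. The M0 naive level of Il1a and Il1r1 was not above background, so the sizes plotted for them are fitted values, with bounds in the text.

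Inflammasome partners were listed as 21 further sensors, adaptors, caspases and pore proteins. In M0 post-sepsis 8 of 21 were lower than in M0 naive and 0 were higher, with a median of -0.63. Of all probes there, 6.28% were lower and 6.37% higher. The largest were Mefv, the pyrin sensor, at -2.48 ± 0.19, and Casp4, which senses cytosolic lipopolysaccharide, at -1.80 ± 0.20 (limma adjusted p = 5.75e-07 and 2.11e-05). In M1, 8 of 21 were higher and 6 lower, beside 14.6% and 15.6% of all probes. Mefv and Casp4 were both higher there, at 3.58 ± 0.19 and 2.41 ± 0.20. Pycard, the adaptor that joins sensor and caspase, was instead lower in M1, at -1.52 ± 0.19 (limma adjusted p = 1.24e-05), whereas Gsdmd, the pore former, was at 1.13 ± 0.21. Nlrp1a and Nlrp1b, close paralogs whose probes may share signal, moved apart in M1, at 3.03 ± 0.20 and -3.43 ± 0.26.

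TAM naive were lower than M0 naive in 16 of 21 partners and higher in 1, Mefv, with a list median of -2.27. Of all probes in that comparison, 22% were lower and 16.1% higher. Gsdmd was at -3.89 ± 0.30 and Naip6, a partner of Nlrc4, at -4.77 ± 0.32. The Naip genes are related copies whose probes may share signal, but their values ran from -4.77 for Naip6 to 0.62 for Naip5. The last was not called (limma adjusted p = 0.182). Between the TAM groups 0 of 19 tested partners were called, and with slide as a block 6 were lower and 2 higher, with Mefv at -2.12 ± 0.25 (limma adjusted p = 0.011). These counts stand beside 24.1% and 9.01% of all probes and are near them. The same macrophage and melanocyte marker differences as for Casp1 stood beside the lower partners of TAM naive.

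**Figure D5:**
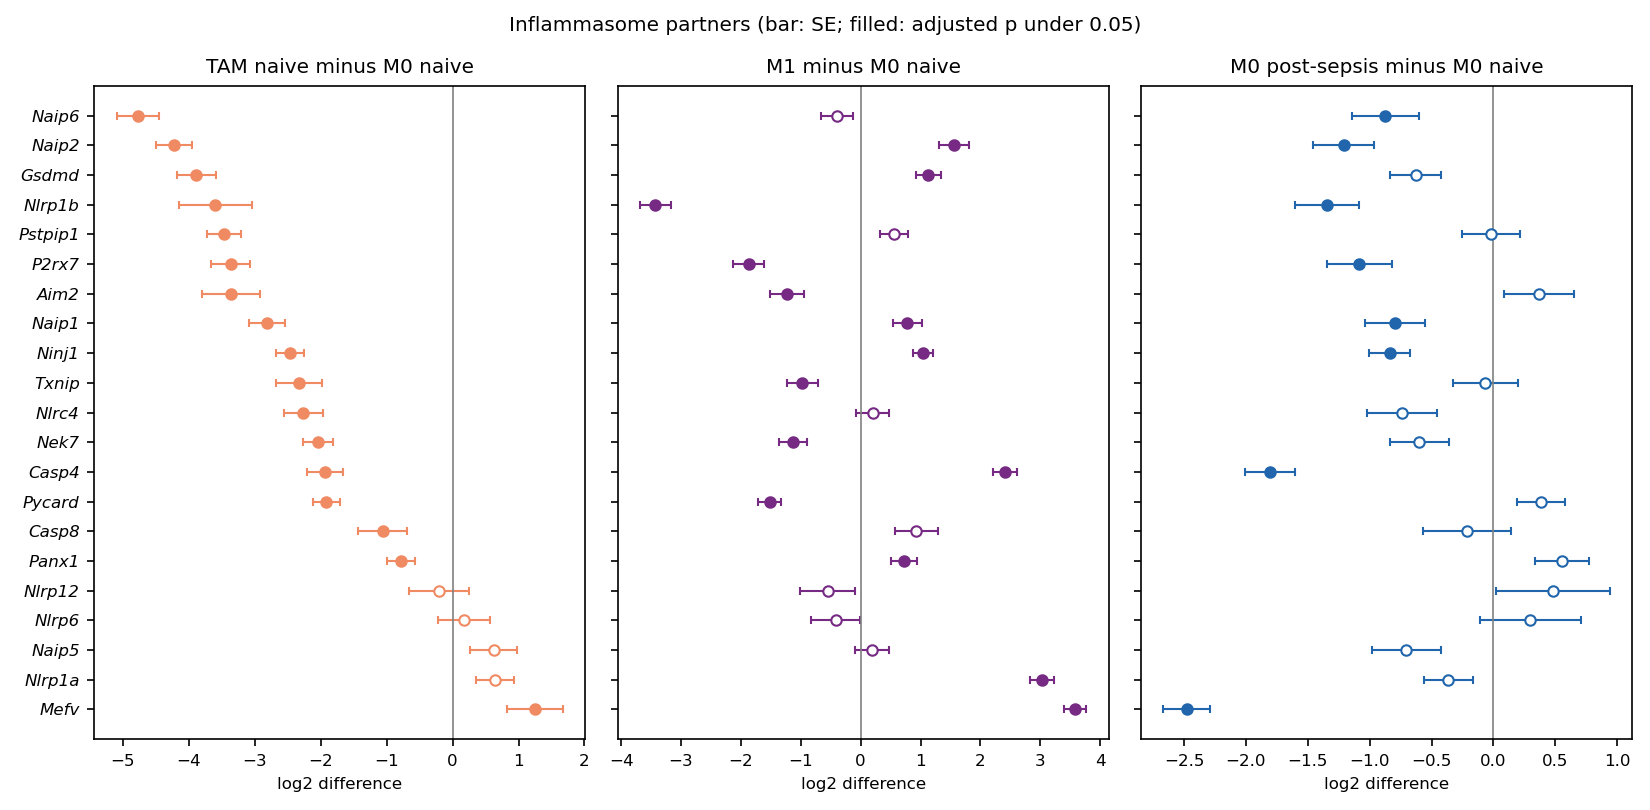
Log2 difference from M0 naive for 21 inflammasome partners in TAM naive, M1 and M0 post-sepsis (points, bars ± SE), filled where the limma adjusted p was under 0.05. Mefv lay at 1.25, 3.58 and -2.48 and Casp4 at -1.93, 2.41 and -1.80 in these 3 comparisons, which share the M0 naive arrays.

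Genes known to be induced by IL-1 or IL-18 were listed apart, although Toll-like receptor signals also induce most of them. In M1, 9 of 9 tested were higher, with Il6 at least 978-fold above M0 naive and the neutrophil attractant Cxcl2 at 4.84 ± 0.26. In M2, 5 of 8 were lower, including Cxcl2 at -2.33 ± 0.26, and Cxcl1 was at least 7.71-fold lower, while Ptgs2, the inducible prostaglandin synthase, was higher at 2.44 ± 0.41. In M0 post-sepsis 5 of 7 were lower, with Zc3h12a, a nuclease that degrades cytokine transcripts, at -1.73 ± 0.23 and Lcn2, an iron-scavenging protein, at -1.69 ± 0.19. TAM naive were higher in 7 of 10 and lower in 1, with Il6 at least 235-fold higher than in M0 naive. The macrophage, melanocyte and fibroblast marker differences given above stood beside these, and their part was not tested. The shares over all probes were 14.6% higher in M1, 7.52% lower and 5.65% higher in M2, and 6.28% lower in M0 post-sepsis. In TAM naive 16.1% of all probes were higher and 22% lower. Between the TAM groups 0 of 10 were called, and with slide as a block 3 were lower, among them Cxcl2 at -1.41 ± 0.33 (limma adjusted p = 0.0202), a count near the 24.1% of all probes.

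The 13 genes of receptor signalling gave 0 calls of 13 in M0 post-sepsis by limma, where 12.7% of all probes were called. In M1, 6 were higher and 2 lower than in M0 naive, led by Irak3, an inhibitory kinase of the pathway, at 2.86 ± 0.23. Of all probes in M1, 14.6% were higher and 15.6% lower, and the 2 lower are near that share. Irak3 was lower in M2, at -1.09 ± 0.23, together with the adaptor Myd88 at -0.87 ± 0.23 and Peli1 at -0.94 ± 0.23. No other of the 13 was called there, where 7.52% of all probes were lower and 5.65% higher. In TAM naive 7 of 13 were lower than in M0 naive and 1 was higher, beside 22% and 16.1% of all probes.

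Likeness was described by Pearson's r over the 23 arrays, which fall into the 6 groups and so share group differences. Il1b ran closest to Cxcl2 (0.97), Socs3 (0.97) and Nfkbia (0.96), Il1a to Procr (0.96), Pdpn (0.96) and Ggct (0.96), and Il1rn to Hcar2 (0.96), Lta (0.95) and D16Ertd472e (0.95). Il18bp ran closest to Usp18 (0.99), Samhd1 (0.98) and Pla2g7 (0.98). Casp1 ran with Slc11a1 (0.995), Mcoln2 (0.99) and Fcgr4 (0.99), and Il1r2 with Plbd1 (0.95), Btla (0.94) and Bcl6b (0.94). The nearest genes to Il18 were Klhl17, Susd6 and Hscb, to Il1r1 Vasn, Hsph1 and Slc4a11, and to Nlrp3 Acsbg1, Rgs9 and Trem3, the last at 0.86 to 0.85. Among the 9 genes, Il1a and Il1rn ran together at 0.95, Casp1 and Il18bp at 0.89, and Casp1 and Il1r2 ran opposite at -0.86.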

How the data were processed

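RNA of 24 samples was hybridised to 1-colour Agilent arrays. Per the file headers, the deposited processed intensity came from Agilent Feature Extraction 10.7.3.1, which subtracts background and removes spatial trends array by array, and probes were placed on mm9; the submitters' processing notes name version 12.5. The authors' deposited table of log2 values was not used, because the ranks of 22 of its 24 columns best matched another sample's scanner file. Signals well above background were taken from the scanner's flag, and no spot was saturated. The 75th percentile of intensity ran from 236 to 694 over 23 arrays, whose number limits the precision. It was 376 to 694 in TAM post-sepsis and 270 to 398 in TAM naive. The median of protein-coding probes exceeded that of long intergenic non-coding RNA probes by 2.21 to 3.14 and 1.67 to 2.32 there (log2). In M0 post-sepsis and M0 naive the percentile was 236 to 480 and 357 to 534. The part of signal strength in the group differences was not tested.

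Intensities were log2-transformed, centred on each array's 75th percentile and averaged over spots of a probe, leaving out non-uniform spots. A probe entered a fit when 3 arrays or more of one compared group flagged it above background. Testing used lmFit and eBayes of limma 3.58.1 (R 4.3.3), two-sided, with Benjamini-Hochberg adjustment over all probes kept and a threshold of 0.05. The TAM pair was fitted on 7 arrays, cultures on 16, and comparisons spanning both on 23. TAM arrays spread more than cultures, so the pooled spread of the 23-array fits may give SE and p-values that are too small. The 3 slides, each scanned once, entered as a block in an alternative. Each gene was read by its brightest probe, as were list genes, of which up to 5 with the largest called change could be named. The nearest genes were the 3 with the highest Pearson's r over 23 arrays. Gene names came from RefSeq's GRCm38.p6 table by accession for 27656 probes. The steps were tested on simulated data. Noise there was independent for each probe and array, with no slide effect, so the simulation cannot speak to TAM counts that change with the slide block.

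The genes and lists were chosen with earlier results of these data known. Same-numbered arrays correlated in their deviations from the group means at -0.51 to 0.67, and every pair exceeded 0.1 in 2 of 15 group pairings, neither of them a comparison made here, so numbers were not taken as pairs.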

Additional observations from a re-analysis of the deposited data

Results flagged for a closer look

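For 3 genes the post-sepsis difference in TAM departed from that in M0 by the test of the difference itself (limma on 23 arrays). It was -2.49 for Il1rn, -4.68 for Il1r2 and 4.12 for Il18bp. That fit pools TAM with the less variable cultures, so its SE and p-values may be too small. Neutrophil markers were lower post-sepsis in M0 (5 of 9) and, with slide as a block, in TAM (6 of 8). In that TAM fit B cell (4 of 4), mast cell (4 of 4), dendritic cell (4 of 5) and T and NK cell (5 of 5) markers were lower too. Of all probes, 6.28% were lower in M0 and 24.1% in that TAM fit. In M0 limma called 0 of 4, 0 of 2 and 0 of 3 tested B, mast, and T and NK cell markers. It called 1 of 4 dendritic cell markers higher, and 12.7% of all probes in either direction. The part of these markers was not tested.

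In 45 groups of 4 arrays, 2 held an array far from the other three. Il18bp in TAM post-sepsis replicate 2 was at -2.99, where the other arrays lay between -1.82 and -1.73. Il18bp in M2 replicate 2 was at 2.77, where the other arrays lay between 3.09 and 3.13. Chance alone flags about 1 in 20 groups.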

How the results depend on the processing

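Of 60 results on single genes, 33 were called, and 28 of these kept their direction and their call under every alternative run: normexp background, quantile scaling, no filter on dim probes, slide block, replicate block, each array left out, the mean of all probes and, where they applied, the excluded TAM array and a fit on 23 arrays. The exceptions were Il1rn and Casp1 in M0 post-sepsis, Il1r2 in M1, and Il1rn and Il1r2 in the difference of differences. Il1r2 in M1 was 0.21 with an adjusted p of 0.379 under normexp. Calls between the TAM groups numbered 0, against 11525 with slide block, 11634 with replicate block, 4864 in the fit on all 23 arrays and 8901 with slide block and without TAM post-sepsis replicate 2. With each array left out they ran from 0 to 11194, the latter without TAM post-sepsis replicate 2, and the other 6 omissions gave 0. The cause was not tested. The numbers do not pair the samples, and the replicate block changed counts by under 1.5 times elsewhere. The difference of differences had 2437 calls, 1503 higher and 934 lower, against 3928 under quantile scaling, 2920 higher and 1008 lower, and 1102 with TAM naive replicate 2 included. With each array left out it ran from 1174 (TAM naive replicate 1) to 7163 (TAM post-sepsis replicate 2); it was 1321 to 1561 without TAM post-sepsis 3, TAM naive 3, M0 post-sepsis 1, M0 naive 2 or M0 naive 4, and 4318, 4654 and 5431 without TAM naive 4, M0 post-sepsis 2 and M0 post-sepsis 4. The median of all probes there was -0.24, against -0.39 under normexp and 0.03 under quantile scaling; between the TAM groups it was 0.02, against -0.12 and 0.12. Uncalled values that turned sign were Il1a and Casp1 between the TAM groups, at 0.23 and 0.0401 with replicate block, and Casp1 at 0.0441 with TAM naive replicate 2 included. With each array left out, Il1a ran from -1.19 to 0.23, Casp1 from -0.46 to 0.13 and Il1r1 from -0.30 to 1.09 between the TAM groups. Likewise Nlrp3 in M0 ran from -0.18 to 0.40, Il1r2 in M1 minus M2 from -0.0618 to 0.18, and Il1r1 in the difference of differences from -0.23 to 1.16. Signal near background limited Il1a, Il1r1 and Il1r2 in M0.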
